A study of Homo sapiens with 6 samples.

Results

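Hypoxia-inducible genes that lie outside glycolysis were followed in HCC2814 cells, a human lung squamous cell carcinoma (LUSC) line, with and without MLST8. The 34 genes were taken from a list of known targets of the hypoxia-inducible factors (HIFs) and matched by symbol to the expression table, and all 34 were among its 17448 genes. RNA-seq of polyA-selected libraries was made from 3 WT samples, which carried a non-targeting CRISPR guide, and 3 MLST8-KO samples, which carried a guide against MLST8, a subunit shared by mTORC1 and mTORC2. All 6 samples came from the HCC2814 line after lentiviral delivery of Cas9 and guide and antibiotic selection, were grown in DMEM with fetal bovine serum, and the replicates came from separate experiments per the series text. No sample was labelled as kept at low oxygen. The paper describes culture of its tumor cells in a humidified mix of air and CO2. The knockout cells were a selected population that the sources used here did not call a clone.

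HIF1 and HIF2 are transcription factors made of an oxygen-labile alpha subunit, encoded by HIF1A or EPAS1, and a stable partner, ARNT. Prolyl hydroxylases mark the alpha subunits for destruction by VHL when oxygen is present, and mTORC1 is known to raise the synthesis of HIF1A protein. HIF1 is known for targets in metabolism, mitophagy and collagen processing and HIF2 for targets such as EPO, TGFA and CCND1, but the split differs between cell types and many targets answer to both.

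Depth was even, with 14381673 to 15744154 estimated counts per sample. A count of 0 in a library thus allowed up to 3 counts, or 0.191 to 0.209 CPM, for counting error only. CPM are counts scaled to the size of the library, and this limit alone was computed without the TMM scaling of the other CPM. MLST8 itself lay at 58.0, 56.9 and 60.7 CPM in WT and at 25.5, 38.9 and 25.7 CPM in MLST8-KO samples, a log2 fold change of -0.96 ± 0.15 (standard error; edgeR adjusted p = 0.00339). The line expressed the 10 squamous and epithelial markers looked at. Their TPM (transcript abundance scaled by gene length and depth) summed to 11989 to 19012 in WT and 24031 to 26841 in MLST8-KO samples. At an edgeR adjusted p under 0.05, 8 of the 10 were higher in MLST8-KO and 0 were lower, against 16.3% and 15.7% of all genes tested. Of 8 markers of other cell types, 7 were listed and summed to 11.2 to 13.9 TPM in all 6 samples. COL1A1 made most of that sum, at 9.43 to 11.5 TPM, while PTPRC was at 0 to 1 counts and NAPSA at 0 to 3 counts. Only 3 of these markers passed the filter on low counts. Of those, 0 were higher and 1 was lower in MLST8-KO, namely PECAM1 at 7 to 22 counts (log2 fold change -1.34, edgeR adjusted p = 0.0180). MLST8-KO replicate 1 stood apart in 7 liver genes, which summed to 273 TPM there and to 0.54 to 6.27 TPM in the other 5 libraries. It held 39 genes with at least 20 counts and at least 5 times the level of every other library, and 0 of the 34 hypoxia-inducible genes were among them. In bulk RNA, fewer cells of a type and less RNA per cell cannot be told apart.

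The hypoxia-inducible genes moved in both directions. Of the 33 that passed the filter on low counts, 8 rose and 6 fell on loss of MLST8 at an adjusted p under 0.05 (edgeR), against a background of 16.3% of all 12951 genes tested called higher and 15.7% called lower. The 14 calls made 42.4% of the 33 genes, against 32% of all genes tested called in either direction. With limma on log2(TPM + 1) 10 were higher and 3 lower, and with upper quartile scaling in edgeR 9 were higher and 4 lower. The median log2 fold change (MLST8-KO over WT) was 0.07 over the 33 genes and 0.00 over all genes tested, and single genes ran from -0.52 for VEGFA to 0.83 for TMEM45A. TMEM45A, ZNF395, DDIT4, KDM3A, ANKZF1, BHLHE40, EFNA1 and KDM4B were higher, and VEGFA, JMJD6, NDRG1, P4HA1, BNIP3 and FAM162A were lower. The MLST8-KO samples all lay above the WT samples in 10 genes and all below in 6, while 17 overlapped; over all genes tested the shares were 24.8% above and 24.2% below, or 49.1% without overlap. CA9 was the gene that the filter removed.

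**Figure D1:**
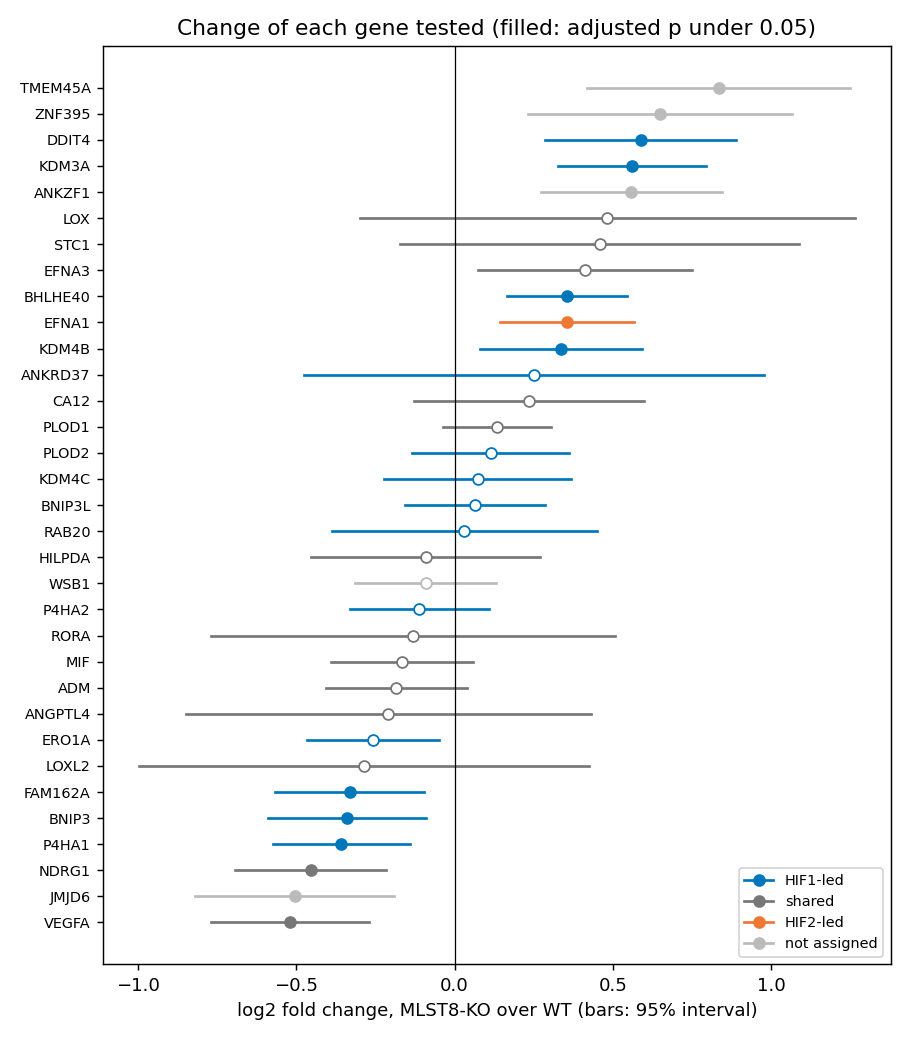
Log2 fold change of each of the 33 hypoxia-inducible genes tested (horizontal axis, MLST8-KO over WT, edgeR; bars, 95% interval), ordered by size, coloured by class and filled where the adjusted p was under 0.05. VEGFA lies lowest at -0.52 and TMEM45A highest at 0.83, with 6 genes called lower and 8 called higher.

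HIFs bind DNA at a short core, and the letters of that core are ACGTG or GCGTG. They were looked up on both strands of the 250 bases before a RefSeq start of each gene (GRCh38.p14), which can be an inner start. A window was found for 24 of the 34 genes. At least 1 of the 2 words occurred in 20 of these 24 genes (83.3%), against 64.9% of the 10270 tested genes with a window and 47.4% of all 27305 genes with one. The word ACGTG was in 14 of 24 (58.3%) against 28.8% of the tested genes, and GCGTG in 14 of 24 (58.3%) against 53.5%. Because the genes came from a list of known HIF targets, a higher share was likely from the start, and it was not tested. The windows of genes that moved in opposite directions are printed so that they can be read side by side, with that of undetected CA9. Bases are 5′ to 3′ on the gene's own strand, and capitals mark ACGTG or GCGTG or, for the other strand, CACGT or CACGC; where matches overlap, as in CACGTG, all their letters are in capitals.
KDM3A (chr2:86441121-86441370, plus strand): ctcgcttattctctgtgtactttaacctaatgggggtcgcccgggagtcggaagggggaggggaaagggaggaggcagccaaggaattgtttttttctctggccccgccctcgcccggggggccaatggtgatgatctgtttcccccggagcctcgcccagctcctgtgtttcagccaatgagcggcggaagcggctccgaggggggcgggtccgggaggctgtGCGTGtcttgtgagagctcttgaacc
DDIT4 (chr10:72273674-72273923, plus strand): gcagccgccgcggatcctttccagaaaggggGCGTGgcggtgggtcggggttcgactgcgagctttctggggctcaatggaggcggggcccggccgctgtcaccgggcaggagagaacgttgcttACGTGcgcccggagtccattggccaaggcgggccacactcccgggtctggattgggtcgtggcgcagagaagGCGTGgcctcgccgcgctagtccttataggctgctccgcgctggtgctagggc
BHLHE40 (chr3:4979187-4979436, plus strand): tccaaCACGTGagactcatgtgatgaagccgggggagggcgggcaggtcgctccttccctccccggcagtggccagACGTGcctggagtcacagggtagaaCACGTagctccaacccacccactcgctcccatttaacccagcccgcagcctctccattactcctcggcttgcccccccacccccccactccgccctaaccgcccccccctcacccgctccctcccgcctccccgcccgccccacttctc
EFNA1 (chr1:155127626-155127875, plus strand): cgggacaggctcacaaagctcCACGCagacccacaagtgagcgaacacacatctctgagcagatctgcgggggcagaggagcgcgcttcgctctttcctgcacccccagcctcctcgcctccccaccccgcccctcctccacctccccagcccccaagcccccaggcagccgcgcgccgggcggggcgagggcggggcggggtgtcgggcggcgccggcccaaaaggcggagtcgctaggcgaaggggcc
P4HA1 (chr10:73096867-73097116, minus strand): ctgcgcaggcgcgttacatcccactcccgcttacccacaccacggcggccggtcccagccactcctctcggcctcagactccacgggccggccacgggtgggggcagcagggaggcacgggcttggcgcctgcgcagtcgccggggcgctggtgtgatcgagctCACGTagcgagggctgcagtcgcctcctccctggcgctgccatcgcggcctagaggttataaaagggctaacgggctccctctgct
BNIP3 (chr10:131981924-131982173, minus strand): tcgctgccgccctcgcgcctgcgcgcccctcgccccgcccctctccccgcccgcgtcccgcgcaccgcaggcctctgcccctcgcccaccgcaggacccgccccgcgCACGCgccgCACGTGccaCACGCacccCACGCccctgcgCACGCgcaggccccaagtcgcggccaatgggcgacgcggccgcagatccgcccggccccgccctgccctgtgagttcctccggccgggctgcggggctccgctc
FAM162A (chr3:122383932-122384181, plus strand): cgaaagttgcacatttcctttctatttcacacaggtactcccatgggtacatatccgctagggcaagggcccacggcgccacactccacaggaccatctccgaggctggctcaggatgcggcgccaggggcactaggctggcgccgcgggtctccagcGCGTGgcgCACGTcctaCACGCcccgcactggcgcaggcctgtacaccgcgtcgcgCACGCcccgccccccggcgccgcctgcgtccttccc
CA9 (chr9:35673678-35673927, plus strand): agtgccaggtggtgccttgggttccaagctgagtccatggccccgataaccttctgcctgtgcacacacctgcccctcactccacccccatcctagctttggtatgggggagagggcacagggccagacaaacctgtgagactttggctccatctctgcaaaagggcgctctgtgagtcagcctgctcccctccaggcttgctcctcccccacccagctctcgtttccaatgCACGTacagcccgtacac
The words stood before genes that rose (KDM3A, DDIT4, BHLHE40, EFNA1), before genes that fell (P4HA1, BNIP3, FAM162A) and before CA9. Of the genes with a window, 5 of 6 that were higher, 3 of 3 that were lower and 11 of 14 that were not called held at least 1 word. TMEM45A, P4HA2, RORA and MIF held none in the 250 bases. For RORA and P4HA2 this covers an inner start only. The RORA window (chr15:60627531-60627780, minus strand) lay inside the GENCODE gene, which begins at 61229319. Likewise, the P4HA2 window (chr5:132227092-132227341, minus strand) lay inside a gene that begins at 132295315.

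The largest group of higher genes worked in chromatin and transcription, where 4 of 7 were higher and 1 was lower. The median log2 fold change was 0.34. Over all genes tested, 16.3% were called higher and 15.7% lower, and no role was tested against these shares. KDM3A (chr2:86440647-86492716, GRCh38), a demethylase of histone H3 lysine 9, lay at 35.1, 29.1 and 30.3 CPM in WT and at 47.9, 50.03 and 41.6 CPM in MLST8-KO samples. Every MLST8-KO sample was above every WT sample, and the mean rose from 31.5 ± 3.18 to 46.5 ± 4.37 CPM (SD, n = 3 each; log2 fold change 0.56 ± 0.11 standard error, edgeR adjusted p = 0.00554). KDM4B (chr19:4969113-5153595), which demethylates lysines 9 and 36 of the same histone, was at 23.5, 20.1 and 18.0 CPM in WT and 27.2, 25.1 and 25.5 CPM in MLST8-KO samples, without overlap (log2 fold change 0.34 ± 0.12, adjusted p = 0.0477). Its relative KDM4C spanned 10.5 to 13.4 CPM in WT and 11.7 to 13.4 CPM in MLST8-KO samples (log2 fold change 0.07, adjusted p = 0.694).

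BHLHE40 (chr3:4979116-4985323), a basic helix-loop-helix repressor also tied to the circadian clock, had the highest TPM of this role. Its levels were 166, 152 and 140.1 CPM in WT and 185, 203 and 198 CPM in MLST8-KO samples, again without overlap (153 ± 13.2 to 196 ± 9.09 CPM; log2 fold change 0.36 ± 0.09, adjusted p = 0.0128). ZNF395, a zinc finger protein, was at 8.16, 7.71 and 4.91 CPM in WT and 11.1, 11.7 and 9.86 CPM in MLST8-KO samples. All 3 MLST8-KO values were above the WT values, although WT replicate 3 was well below the other WT samples (log2 fold change 0.65 ± 0.19, adjusted p = 0.0257).

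JMJD6 (chr17:76712832-76726799), a jumonji-domain oxygenase, went the other way from KDM3A and KDM4B, which share that domain. It was at 36.5, 40.0 and 53.8 CPM in WT and at 29.4, 28.4 and 33.9 CPM in MLST8-KO samples, so that the lowest WT sample lay above the highest MLST8-KO sample (log2 fold change -0.51 ± 0.14, adjusted p = 0.0227). RORA, a nuclear receptor, spanned 2.26 to 4.41 CPM in WT and 2.37 to 3.42 CPM in MLST8-KO samples (log2 fold change -0.13, adjusted p = 0.746).

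**Figure D2:**
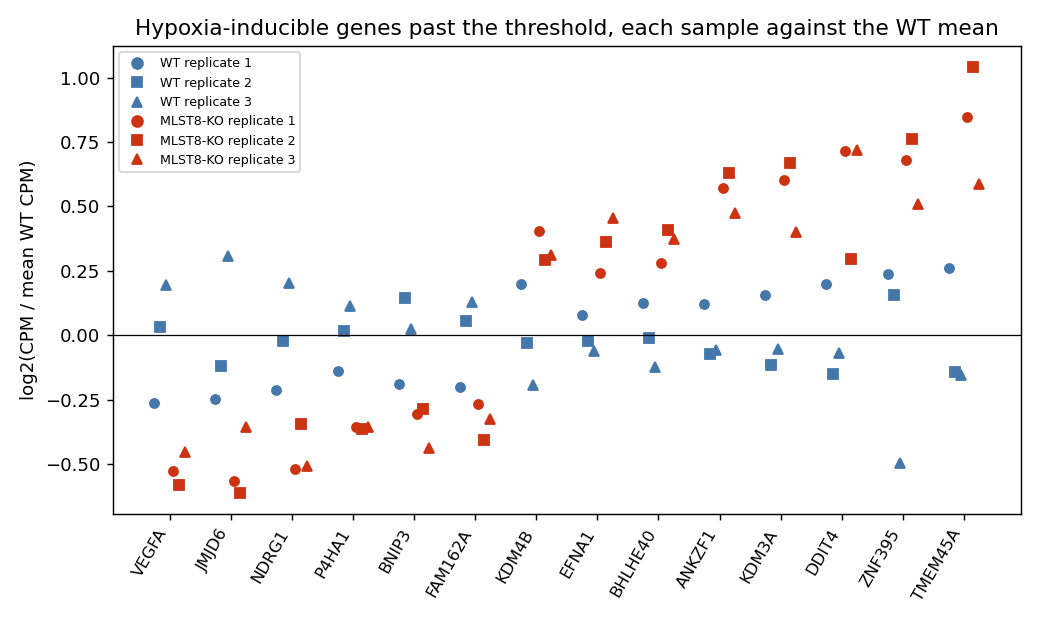
Log2 of each sample's CPM over the mean CPM of the 3 WT samples (vertical axis; 0 is that mean) for the 14 hypoxia-inducible genes called by edgeR, with WT in blue, MLST8-KO in red and marker shapes for replicate numbers. The WT and MLST8-KO points do not overlap in any of the 14 genes, and WT replicate 1 is the WT point nearest the MLST8-KO points throughout.

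Among genes of mitochondria, growth restraint and lipid storage, 1 of 7 was higher and 3 were lower, with a median of -0.09. The shares over all genes tested were 16.3% higher and 15.7% lower. DDIT4 (chr10:72273920-72276036), also called REDD1, is a known brake on mTORC1. It rose from 29.5, 23.1 and 24.5 CPM in WT to 42.2, 31.6 and 42.3 CPM in MLST8-KO samples, with MLST8-KO replicate 2 below the other MLST8-KO samples but above every WT sample (25.7 ± 3.33 to 38.7 ± 6.16 CPM; log2 fold change 0.59 ± 0.14, adjusted p = 0.0111). NDRG1, a stress-response gene whose product is a known substrate of the mTORC2-dependent kinase SGK1, had the highest TPM of the called genes. Its levels were 357, 408 and 477 CPM in WT and 289, 326 and 291 CPM in MLST8-KO samples (414 ± 60.1 to 302 ± 20.5 CPM; log2 fold change -0.46 ± 0.11, adjusted p = 0.0118). These are mRNA levels, and phosphorylation was not measured.

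BNIP3 (chr10:131966455-131982013), a receptor that marks mitochondria for autophagy, was at 21.8, 27.4 and 25.3 CPM in WT and 20.1, 20.3 and 18.3 CPM in MLST8-KO samples. The groups did not overlap, though WT replicate 1 lay close to the MLST8-KO samples (log2 fold change -0.34 ± 0.11, adjusted p = 0.0413). FAM162A (chr3:122384176-122412334), a mitochondrial protein linked to cell death in hypoxia, was at 29.5, 35.2 and 37.0 CPM in WT and 28.1, 25.6 and 27.0 CPM in MLST8-KO samples (log2 fold change -0.33 ± 0.11, adjusted p = 0.0376). Its WT replicate 1 was likewise the lowest WT sample. BNIP3L, the close relative of BNIP3 with the same role, was at 19.7, 18.6 and 21.4 CPM in WT and 20.7, 21.4 and 20.3 CPM in MLST8-KO samples, so its groups overlapped (log2 fold change 0.07, 95% interval -0.16 to 0.29). HILPDA, an inhibitor of lipolysis on lipid droplets, spanned 7.23 to 10.7 CPM in WT and 8.004 to 8.97 CPM in MLST8-KO samples, and the small GTPase RAB20 2.82 to 2.92 and 2.75 to 3.15 CPM. Their log2 fold changes of -0.09 and 0.03 did not pass the threshold.

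Genes for secreted and cell-surface signals gave 1 higher and 1 lower gene of 7, near the 16.3% and 15.7% of all genes tested. Their median was -0.17. VEGFA (chr6:43770184-43786487), the main growth factor for blood vessels, was at 58.0, 71.1 and 79.7 CPM in WT and 48.3, 46.5 and 50.8 CPM in MLST8-KO samples. Its mean fell from 69.6 ± 10.9 to 48.5 ± 2.20 CPM, and the WT samples spread more than the MLST8-KO samples (log2 fold change -0.52 ± 0.11, 95% interval -0.77 to -0.27, adjusted p = 0.00900). EFNA1 (chr1:155127460-155134857), a membrane-bound ligand of EPH receptors, was at 28.3, 26.4 and 25.7 CPM in WT and 31.6, 34.4 and 36.7 CPM in MLST8-KO samples, without overlap (log2 fold change 0.35 ± 0.10, adjusted p = 0.0196).

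EFNA3, a second ligand of the same receptors, lay at 4.44, 5.30 and 4.83 CPM in WT and 6.58, 6.30 and 6.53 CPM in MLST8-KO samples. Every MLST8-KO sample was above the WT samples, but the adjusted p was 0.0611 (log2 fold change 0.41). STC1, a secreted glycoprotein hormone, was at 3.98, 4.68 and 4.40 CPM in WT and 6.26, 8.34 and 3.33 CPM in MLST8-KO samples, where replicate 3 lay below all WT samples (log2 fold change 0.46, adjusted p = 0.234). The groups also overlapped in ADM, a vasodilator peptide at 102 to 124 CPM in WT and 90.2 to 108 CPM in MLST8-KO samples, in the cytokine MIF at 289 to 354 and 260.1 to 318 CPM, and in the lipoprotein lipase inhibitor ANGPTL4 at 1.33 to 2.16 and 1.28 to 1.79 CPM. Their log2 fold changes of -0.18, -0.17 and -0.21 did not pass the threshold.

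Collagen-processing and endoplasmic-reticulum oxidation genes gave 0 higher and 1 lower gene of 7, against 16.3% and 15.7% of all genes tested. Their median was -0.11. P4HA1 (chr10:73007217-73096974), a catalytic subunit of the collagen prolyl 4-hydroxylase, was at 27.9, 31.0 and 33.2 CPM in WT and 23.9, 23.8 and 23.9 CPM in MLST8-KO samples. The 3 MLST8-KO values were nearly equal and below all WT values (30.7 ± 2.68 to 23.9 ± 0.0566 CPM; log2 fold change -0.36 ± 0.10, adjusted p = 0.0205). P4HA2, the alternative catalytic subunit, overlapped between groups at 44.9 to 55.0 CPM in WT and 42.2 to 48.7 CPM in MLST8-KO samples, with a log2 fold change of -0.11 and a 95% interval of -0.33 to 0.11. ERO1A, the oxidase that recharges protein disulfide isomerase, was at 134, 157 and 166 CPM in WT and 128, 134 and 120 CPM in MLST8-KO samples (log2 fold change -0.26, adjusted p = 0.0592). MLST8-KO replicate 2 and WT replicate 1 met at the same level.

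Of the lysyl hydroxylases, PLOD1 was at 129.6, 115 and 118 CPM in WT and 132, 132 and 134 CPM in MLST8-KO samples. The groups did not overlap, but the log2 fold change of 0.14 had an adjusted p of 0.197. PLOD2 overlapped at 27.0 to 35.0 CPM in WT and 32.0 to 36.1 CPM in MLST8-KO samples (log2 fold change 0.11, adjusted p = 0.453). The lysyl oxidases, which cross-link collagen outside the cell, were scarce. LOX spanned 1.23 to 2.52 CPM in WT and 1.73 to 3.81 CPM in MLST8-KO samples, and LOXL2 1.13 to 1.80 and 1.02 to 1.73 CPM. Their log2 fold changes of 0.48 and -0.29 were uncertain, with a 95% interval of -0.30 to 1.27 for LOX and -0.997 to 0.42 for LOXL2.

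Of the remaining genes, TMEM45A (chr3:100492619-100577444), a transmembrane protein, had the largest change. It was at 5.11, 3.86 and 3.82 CPM in WT and 7.68, 8.77 and 6.40 CPM in MLST8-KO samples (4.26 ± 0.732 to 7.62 ± 1.19 CPM; log2 fold change 0.83 ± 0.19, adjusted p = 0.01002). ANKZF1 (chr2:219229757-219236669), which acts on stalled peptides at the ribosome, was at 8.82, 7.71 and 7.79 CPM in WT and 12.1, 12.5 and 11.3 CPM in MLST8-KO samples (log2 fold change 0.56 ± 0.13, adjusted p = 0.0111). In both genes the lowest MLST8-KO sample was above the highest WT sample. ANKRD37, an ankyrin-repeat protein, lay at 0.929 to 1.15 CPM in WT and 0.927 to 1.68 CPM in MLST8-KO samples (log2 fold change 0.25, adjusted p = 0.578). WSB1, a substrate receptor of a ubiquitin ligase, overlapped as well, at 44.7 to 46.9 CPM in WT and 37.2 to 47.9 CPM in MLST8-KO samples (log2 fold change -0.09, adjusted p = 0.503).

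The carbonic anhydrases, enzymes grouped here under pH, showed no call. CA9, a widely used hypoxia marker, had 0 counts in all WT samples and 0, 0 and 1 counts in MLST8-KO samples, at or under the limit of 3 counts, so no fold was computed. CA12 was at 87.7, 76.6 and 50.6 CPM in WT and 90.4, 84.9 and 77.9 CPM in MLST8-KO samples, where the groups overlapped and WT replicate 3 was the lowest of all 6 (log2 fold change 0.24, 95% interval -0.13 to 0.60).

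Measured per length, levels spanned a wide range. MIF was highest with a WT mean of 1410 TPM, from 53% to 58% of the summed TPM of the 34 genes, followed by NDRG1 at 251 TPM, ADM at 139 TPM and BHLHE40 at 94.5 TPM. In WT, 3 genes had a mean of at least 100 TPM, 17 lay between 10 and 100 TPM, 10 between 1 and 10 TPM and 4 below 1 TPM, namely CA9, LOX, LOXL2 and RORA. The 34 genes summed to 2381 to 2626 TPM in single samples, and since MIF made most of that sum it says little about the others.

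**Figure D3:**
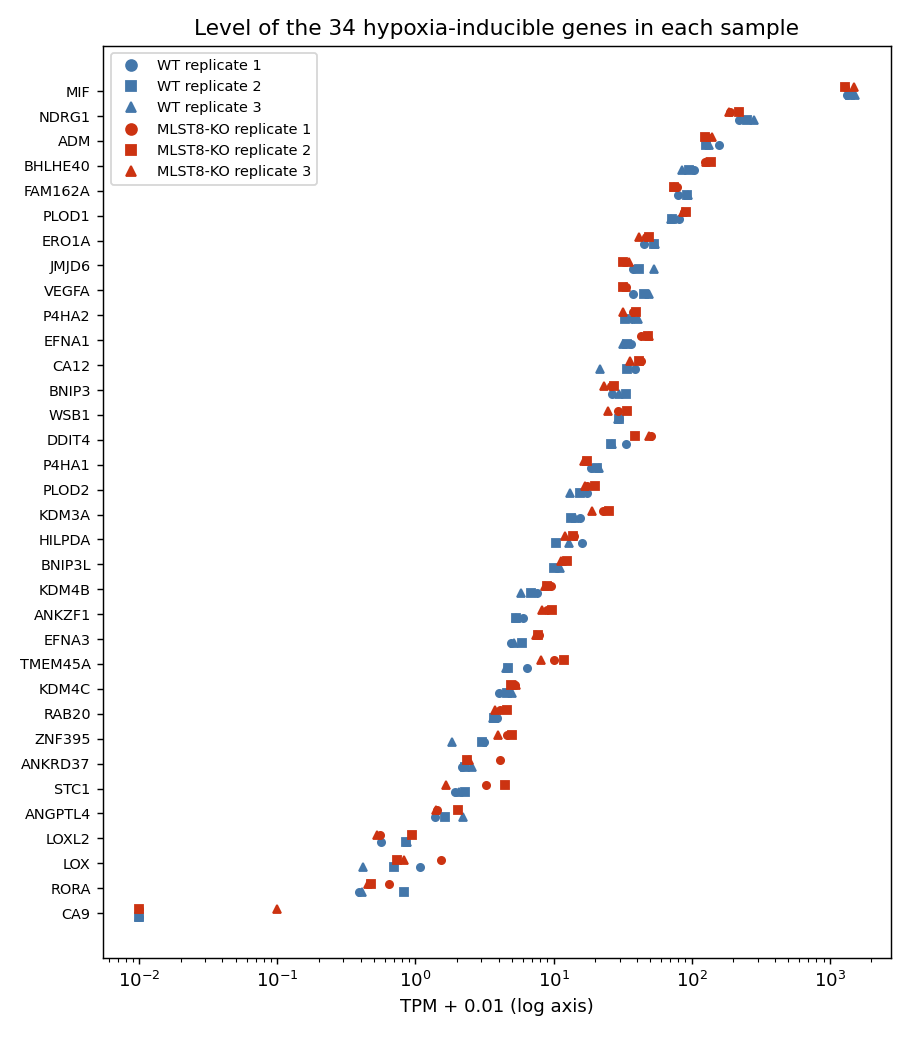
TPM + 0.01 of each of the 34 hypoxia-inducible genes (log axis) in the 3 WT (blue) and 3 MLST8-KO (red) samples, 1 point a sample, ordered by mean level in WT. MIF stands highest at a WT mean of 1410 TPM and CA9 lies at 0 in all WT samples.

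Genes known as HIF1-led were compared with those known as HIF2-led, using a division from general knowledge that is not exact for any cell type. The background for each class was 16.3% of all genes tested called higher and 15.7% called lower. Of the 15 HIF1-led genes 14 were tested, 4 were higher (KDM3A, KDM4B, BHLHE40, DDIT4) and 3 were lower (P4HA1, BNIP3, FAM162A). Their log2 fold changes ran from -0.36 to 0.59 around a median of 0.07. EFNA1 was the single HIF2-led gene of the 34, so 14 further known HIF2-led genes were set beside it. Of these 15, 11 were tested, 4 were higher and 2 were lower, with a median of 0.26 and a range from -1.18 to 0.95. That median hung on a single gene. Over the 10 tested HIF2-led genes other than EFNA1 it was 0.06, beside 0.07 for the HIF1-led genes. The HIF2-led median was -0.21 where no filter was used and the 4 untested genes, all near 0 counts, entered it. No test was made of the difference between the classes, or of a class against all genes. The 3 lower calls of the HIF1-led class did not hold in several fits: there were 0 with limma on either TPM scale and without WT replicate 2 or MLST8-KO replicate 1, 2 or 3, and 1 with upper quartile scaling or without WT replicate 3. The higher calls of this class fell from 4 to 1 without WT replicate 2 and to 2 without MLST8-KO replicate 1 or 2. Over all genes, higher calls in these reduced fits fell from 2116 to between 971 and 1136. Lower calls over all genes fell from 2030 to between 850 and 1559 in the fits named for the lower calls. In the HIF2-led class 2 or 3 genes were lower in every fit, while 4 higher genes became 1 without WT replicate 2 or MLST8-KO replicate 3 and 2 without WT replicate 3 or MLST8-KO replicate 1 or 2. The 13 genes counted as targets of both HIFs gave 0 higher and 2 lower (VEGFA and NDRG1), with a median of -0.13, and of the 5 unassigned genes 3 were higher and 1 was lower.

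TGFA, PLIN2 and CITED2 had the largest changes of the HIF2-led genes. TGFA (chr2:70447280-70554193), a ligand of the EGF receptor, was at 119, 182 and 182 CPM in WT and 58.6, 80.9 and 73.2 CPM in MLST8-KO samples (log2 fold change -1.18 ± 0.17, adjusted p = 0.00281). PLIN2 (chr9:19108375-19149290), a coat protein of lipid droplets, fell from 54.9, 66.5 and 77.1 CPM to 32.2, 26.4 and 37.8 CPM (log2 fold change -1.04 ± 0.15, adjusted p = 0.00281). CITED2 (chr6:139371807-139374620), a CBP/p300-binding protein that limits HIF activity, went up from 13.1, 10.9 and 9.81 CPM to 21.2, 24.0 and 20.3 CPM (log2 fold change 0.95 ± 0.13, adjusted p = 0.00281). The groups did not overlap in any of these 3 genes.

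CYBRD1, an iron reductase, and MMP14, a membrane-bound matrix protease, were higher by smaller amounts, with log2 fold changes of 0.29 (adjusted p = 0.0429) and 0.26 (adjusted p = 0.0449). CYBRD1 was at 193, 165 and 154 CPM in WT and 222, 210.4 and 194 CPM in MLST8-KO samples, and MMP14 at 70.8, 69.8 and 72.4 and 93.3, 76.2 and 86.4 CPM. The groups did not overlap in either gene, but each call was kept in 1 of the 6 fits that left out a sample. MMP14 also missed the threshold with DESeq2 (adjusted p = 0.0527) and without the filter (adjusted p = 0.0578). CCND1, which encodes cyclin D1, had a log2 fold change of 0.30 (adjusted p = 0.0543). CCND1 passed the threshold in 5 of the 8 other settings, namely DESeq2, limma on either TPM scale, upper quartile scaling and the fit with a replicate block (adjusted p = 0.0229 to 0.0356), and without WT replicate 1 (adjusted p = 0.00467). SLC11A2 and SLC40A1, which carry iron, and the calcium channel ITPR1 had log2 fold changes of -0.14, 0.37 and -0.21, also short of the threshold. EPO and ARG1 were at 0 to 1 counts, AXL at 3 to 6 and POU5F1 at 3 to 8 counts, and these 4 were not tested.

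**Figure D4:**
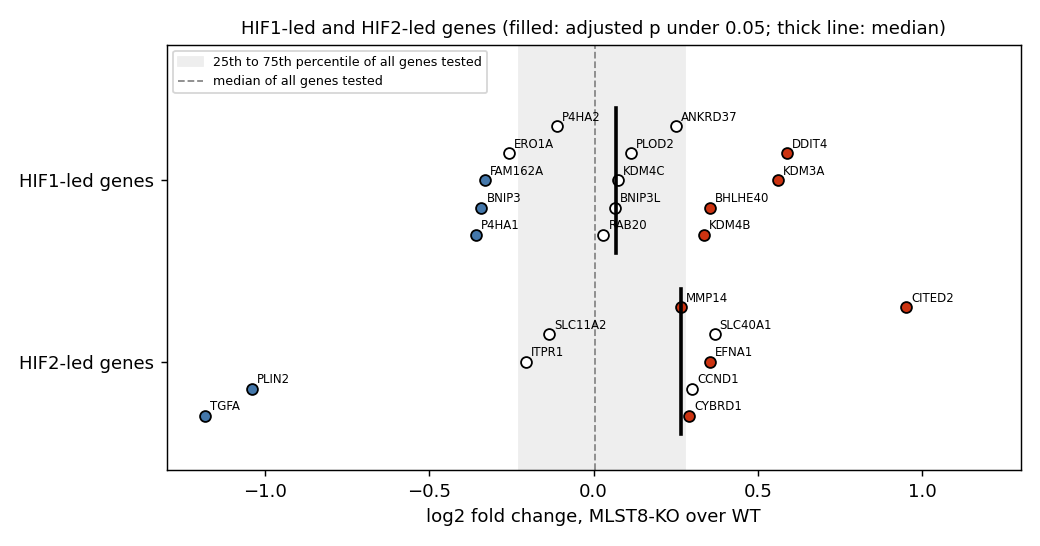
Log2 fold changes (horizontal axis, MLST8-KO over WT) of the 14 tested HIF1-led and 10 of the 11 tested HIF2-led genes, 1 point a gene, filled where the adjusted p was under 0.05, with a thick line at each class median and the 25th to 75th percentile of all genes tested (-0.23 to 0.28) shaded. HIF1-led genes run from -0.36 to 0.59 and HIF2-led genes from -1.18 to 0.95, and both classes cross 0.

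The mRNAs of the HIF subunits moved in opposite directions. HIF1A was at 179, 152 and 108 CPM in WT and 232, 259 and 225 CPM in MLST8-KO samples (log2 fold change 0.71 ± 0.15, adjusted p = 0.00887). EPAS1, which encodes HIF2 alpha, was at 75.6, 92.5 and 105 CPM in WT and 63.8, 68.8 and 60.3 CPM in MLST8-KO samples (log2 fold change -0.50 ± 0.12, adjusted p = 0.0113). Neither pair of groups overlapped, and HIF protein was not measured here. The log2 ratio of HIF1A to EPAS1 in TPM was 1.58, 1.04 and 0.40 in WT and 2.20, 2.24 and 2.23 in MLST8-KO samples (two-sided exact permutation p = 0.1, the smallest that 3 against 3 samples allow).

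Related genes within the list were also set against each other as log2 TPM ratios within each sample, for 6 pairs picked after their values were seen. The BNIP3 to BNIP3L ratio was 1.33, 1.73 and 1.42 in WT and 1.12, 1.11 and 1.03 in MLST8-KO samples, a difference of -0.40 without overlap (two-sided exact permutation p = 0.1, 0.6 after Benjamini-Hochberg adjustment over the 6 pairs). The P4HA1 to P4HA2 ratio differed by -0.22 (exact permutation p = 0.3, adjusted 0.75), and the KDM4B to KDM4C ratio by 0.25 (exact permutation p = 0.4, adjusted 0.75). No pair could fall below 0.1 in this design, so these values are a description.

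The SD of log2 CPM was larger among WT than among MLST8-KO samples in 25 of the 33 genes (75.8%), against 60% of all genes tested. The highest WT value over the lowest had a median of 1.26 for the 33 genes tested and 1.21 for all genes tested, against 1.15 and 1.17 in MLST8-KO samples. The ratio was greatest for LOX (2.06), RORA (1.95), CA12 (1.73) and ZNF395 (1.66). Without WT replicate 1 the median over the 33 genes was 1.10. A ratio of highest to lowest tends to shrink when any sample is left out, so 1.10 cannot be compared with 1.26. In all 14 called genes WT replicate 1 was the WT sample nearest to the MLST8-KO mean, as it was in 76% of the 4146 called genes of the whole table; this was looked at after the values were seen.

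Genes differed in how often their call was lost when 1 sample was left out. KDM3A, TMEM45A and VEGFA passed the threshold in each of the 6 fits that left out 1 sample and in all 8 other settings run. ANKZF1 and NDRG1 passed in 5 of the 6 reduced fits, BHLHE40, DDIT4 and JMJD6 in 4, EFNA1 and ZNF395 in 3, P4HA1 in 2, and BNIP3, FAM162A and KDM4B in 1. Over these fits the log2 fold change ran from -0.42 to -0.30 for P4HA1 and from -0.43 to -0.27 for BNIP3. It ran from -0.42 to -0.27 for FAM162A and from 0.25 to 0.45 for KDM4B. A reduced fit has fewer samples, so a lost call alone does not show that the omitted library carried the change. Without WT replicate 2 the higher genes fell to 2 (KDM3A and TMEM45A). Without MLST8-KO replicate 1, the library with the liver genes, the lower genes fell to 1 (VEGFA) and the higher genes to 5. Without MLST8-KO replicate 2 there were 4 higher and 2 lower genes, and without MLST8-KO replicate 3 or WT replicate 2 the lower genes were 3. Calls over the whole table fell in these fits too, from 2116 higher and 2030 lower of 12951. They were 971 and 1044 of 13106 without WT replicate 2, and 979 and 850 of 13071 without MLST8-KO replicate 1. Without MLST8-KO replicate 2 they were 1136 and 1091 of 13066, and without MLST8-KO replicate 3 1543 and 1497 of 13083. The part of the liver signal and of the squamous markers in these results was not tested.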

How the data were processed

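RNA was sequenced by BGI in 6 samples, 3 WT and 3 MLST8-KO, grouped by their titles. Reads were mapped by the authors with HISAT (GRCh38.p12) and Bowtie2 (reference genes). For every gene and sample they deposited estimated counts, TPM and FPKM. The estimated counts were not normalized, and 12.4% were not whole, so they were rounded before testing; TPM and FPKM are scaled by gene length and depth, and FPKM was not used for any test. Strand use in counting is not given in the sources used here. Where ANKZF1, FAM162A, ANKRD37, LOX, CA9, P4HA2 and BNIP3L overlap genes of the expression table on the other strand, reads therefore cannot be told apart. LOXL2 and ZNF395 overlap genes of the expression table on their own strand, where strand use would not separate the reads. Annotated genes absent from the expression table, some of them antisense RNAs, overlap further genes, among them the called VEGFA, BNIP3, DDIT4, BHLHE40 and P4HA1. A table of the authors' own comparisons (fold changes, p-values and q-values) was not used. In the symbols, 25 that had become dates were restored through gene identifiers.

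Genes were tested with the quasi-likelihood functions glmQLFit and glmQLFTest of edgeR 4.0.16 (R 4.3.3), after TMM scaling and filterByExpr, over 12951 genes, with Benjamini-Hochberg adjustment over all of them and a threshold of 0.05; ± after a log2 fold change is its standard error and ± after CPM is the SD of 3 samples. CPM were scaled by TMM, except for the limit given for a count of 0. On simulated counts with 200 genes changed by a log2 fold change of 1, 87.3% were recovered and 7.53% of calls were unchanged genes. The called hypoxia-inducible genes changed by 0.332 to 0.835 in size, and 32% of all genes were called. The simulated rates therefore do not give the recovery or error for these genes. Replicates of a group differed by more than sampling noise (chi-square per gene 6.77 to 26.2) and were used as separate samples. The same values were computed with DESeq2 1.42.0, with limma 3.58.1 on log2(TPM + 1) or log2(TPM + 0.1), and in edgeR with size factors of DESeq2 or with upper quartile scaling. Further edgeR fits dropped the filter, asked for 10 counts in each library, blocked on the replicate number or omitted 1 sample. Ratios were compared by two-sided exact permutation with scipy 1.17.1, and figures drawn with matplotlib 3.10.9. Gene coordinates are those of GENCODE on GRCh38. Every one of the 34 genes was accounted for, with the value in every sample for those past the threshold and for some of the others, and the HIF2-led and HIF machinery genes past the threshold were named with HIF1A and EPAS1. The 34 genes and the other lists were chosen with earlier results of these data known. The values of 1 tested HIF2-led gene, which did not pass the threshold, are counted in its class but are not reported here.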

Additional observations from a re-analysis of the deposited data

How the results depend on the processing

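With 3 samples a group, adjusted p-values near the threshold moved with the setting. Leaving out 1 sample at a time gave 2 to 9 higher and 1 to 7 lower hypoxia-inducible genes, medians of 0.03 to 0.07 for the 33 genes, 0.038 to 0.078 for HIF1-led and 0.20 to 0.26 for HIF2-led genes, and a WT spread of 1.10 to 1.20. limma on log2(TPM + 1) called 3 lower genes, with medians of 0.15 (all 33), 0.16 (HIF1-led) and 0.35 (HIF2-led); log2(TPM + 0.1) called 3, with 0.17, 0.18 and 0.37, and moved the median of all genes by 0.10. Over all genes tested, edgeR called 2116 higher and 2030 lower, against 2782 and 1134 by limma on log2(TPM + 1), 2764 and 1132 on log2(TPM + 0.1), 2546 and 1559 with upper quartile scaling, and 971 to 2692 and 850 to 2651 with 1 sample left out. Upper quartile scaling gave an HIF1-led median of 0.12. The HIF2-led median was -0.21 with DESeq2 and -0.21 without the filter, where EPO, ARG1, AXL and POU5F1, all near 0 counts, entered it. BNIP3 lost its call with DESeq2, both limma fits and upper quartile scaling, FAM162A with the last 3, P4HA1 with limma, and KDM4B and MMP14 with DESeq2 and without the filter. Calls were gained by EFNA3 with limma and upper quartile scaling, PLOD1 with limma, ERO1A with DESeq2 and without WT replicate 1, CA12 without WT replicate 1, and STC1 without MLST8-KO replicate 3. The other planned settings kept the counts over the 33 genes within 1.5 times and no called gene changed sign in any of them. Same-numbered samples had correlations of their deviations of 0.105, 0.0565 and 0.14, so the numbers were not taken to pair the samples, although each sample correlated best with its own number; with the replicate block, 8 hypoxia-inducible genes were higher and 6 lower, and 2261 and 2157 of all genes.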

Other observations

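Other genes of the oxygen-sensing machinery than the HIF subunits also differed between the groups. ARNT2, a partner of the HIF alpha subunits, had a log2 fold change of 1.15 (edgeR adjusted p = 0.00281), and EGLN2, a HIF prolyl hydroxylase, of 0.67 (adjusted p = 0.00342). VHL, which targets hydroxylated HIF for destruction, had a log2 fold change of -0.20 and an adjusted p of 0.0623. Of the 9 genes of this machinery that were tested, 3 were higher and 1 was lower, against 16.3% and 15.7% of all genes tested.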
